A study of Mus musculus with 6 samples.

Results

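The keratins described here are those of the upper hair follicle, the companion layer and stressed epidermis: Krt6a, Krt6b, Krt16, Krt17, Krt23, Krt75 and Krt79. They were taken by gene name from the deposited table and make up 7 of its 54532 genes. By the methods, both groups came from the dissociated back-skin epidermis of male and female C57BL/6 mice aged 4 weeks. The labels name no transgene or drug in either. The 3 NCAM-enriched libraries were made from DAPI-negative cells selected for NCAM, a surface protein carried by Merkel cells, which are the touch-sensing neuroendocrine cells of the epidermis. The 3 bulk skin libraries were made from DAPI-negative cells without that selection. Each library was made by Smart-seq2, a full-length cDNA method for little RNA, from 500 sorted events. The labels call the first group Merkel cells and title the second total skin, where the methods name bulk epidermis.

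Keratins build the intermediate filaments of epithelial cells as pairs of a type I and a type II protein. Krt5 and Krt14 form the pair of the basal layer, and Krt1 and Krt10 that of the suprabasal layers. Krt17 and Krt79 are known from the upper follicle, including the cells that line its canal. Krt75 marks the companion layer, a sheet of cells between the inner and outer root sheaths. Krt6a, Krt6b and Krt16 are low in resting epidermis between follicles and appear there after wounding or other stress, while the follicle expresses several of them at rest. Krt16, Krt17 and Krt23 are type I genes on chromosome 11, and Krt6a, Krt6b, Krt75 and Krt79 are type II genes on chromosome 15.

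The deposited values are whole reads per gene, so the sequence of a member decides how far its reads can be told from those of its relatives. In the GRCm38 annotation all 7 genes are protein coding and lie on the minus strand. Krt6a spans chr15:101689910-101694307 and Krt6b spans chr15:101676023-101680287, with 9622 bases between them. Their coding sequences were identical at 97.6% of aligned columns. Both sequences are shown over the same 50 coding bases (827 to 876), the length of 1 read, with the 10 bases that differ in capitals.

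Krt6a: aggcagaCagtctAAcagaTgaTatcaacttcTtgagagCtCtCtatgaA

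Krt6b: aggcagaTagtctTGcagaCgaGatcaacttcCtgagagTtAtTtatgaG

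Reads from this stretch separate the pair, but many others do not. Of the 50-base windows along the transcripts, 42.8% for Krt6a and 49.9% for Krt6b occurred in no other gene, and the pair shared 972 windows. Krt16, at chr11:100246091-100248902, had 62.4% of windows to itself, and shared 382 with the gene model Gm11597 and 188 with Krt14. Counts of Krt6a, Krt6b and Krt16 are therefore uncertain. Krt17 (chr11:100256217-100261029), Krt75 (chr15:101563345-101573904), Krt23 (chr11:99477974-99493137) and Krt79 (chr15:101929332-101940324) had 96, 97.5, 100 and 100% of windows to themselves. Krt16 and Krt17 are separated by 7314 bases, and 69.6% of their aligned coding columns were identical.

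Promoter sequence was at hand from RefSeq (GRCm38.p6) for 3 of the 7 members. The 250 bases before the RefSeq start site are printed for the 2 members among them that the comparison between groups turns on, Krt23 (chr11:99493121-99493370, minus strand) and Krt79 (chr15:101940325-101940574, minus strand). For Krt23 the gene span given above ends at chr11:99493137. The last bases of its window therefore lie within that span, and the start sites of the annotations differ. Capitals mark the CACCC motif, searched on both strands, so that its reverse reads GGGTG.

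Krt23: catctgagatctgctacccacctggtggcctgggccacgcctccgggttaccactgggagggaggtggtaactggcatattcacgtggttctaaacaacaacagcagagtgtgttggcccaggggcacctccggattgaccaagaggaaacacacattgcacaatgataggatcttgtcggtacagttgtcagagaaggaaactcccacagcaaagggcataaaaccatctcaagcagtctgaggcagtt

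Krt79: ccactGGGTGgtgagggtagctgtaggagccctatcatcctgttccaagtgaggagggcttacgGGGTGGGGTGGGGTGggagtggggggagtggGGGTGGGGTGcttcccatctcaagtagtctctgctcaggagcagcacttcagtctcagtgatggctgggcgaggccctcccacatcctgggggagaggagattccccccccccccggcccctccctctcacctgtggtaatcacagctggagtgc

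The window of Krt79 held 6 matches to CACCC, none overlapping another motif, and that of Krt23 held none. CACCC was chosen after these sequences had been seen, and 52% of the 32851 windows of that length in the table hold it on either strand. Neither window held the TATA box letters TATAAA (found in 12.4% of all windows on either strand), the GATA letters AGATAA (9.99%) or the AP-1 letters TGANTCA (6.75%). A match is a run of letters, not a site of binding.

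Across the libraries, total counts ran from 1343190 to 4481830, so that 1 count was 0.216 to 0.773 normalised CPM (reads of a gene divided by the TMM-adjusted library size). Markers of the labelled cell type were higher in the NCAM-enriched libraries: all 10 Merkel cell markers had a log2 fold change above 0 and 5 of them were called. Their summed level was 1569, 1674 and 482 CPM in NCAM-enriched libraries 1, 2 and 3, against 133 to 186 in bulk skin. Suprabasal markers were higher too (8 of 11 called, 14349 to 37324 against 1572 to 1760 CPM). Markers of T and NK cells (6 of 7 called lower, 1.06 to 71.1 against 3523 to 3840 CPM) and of Langerhans and myeloid cells (5 of 7 called lower, 54.9 to 331 against 11203 to 18430 CPM) were lower. In these sorted pools, a change in the number of cells of a type and in the RNA per cell cannot be told apart.

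The comparison asked how the follicle and stress keratins differed between NCAM-selected and unselected cells. The members parted by level: Krt17, Krt79 and Krt23 were 8.91 to 10.2 times as abundant in the NCAM-enriched libraries, while Krt6a and Krt16 were at low, overlapping levels. By edgeR's quasi-likelihood test with Benjamini-Hochberg adjustment over 13157 genes, Krt17 and Krt23 rose. Krt79 did not pass the threshold of an adjusted p of 0.05. Of the 7 members, 6 had a count and 5 passed the filter on low counts, and 2 of these 5 were called higher, beside 1.04% of all genes tested. None was called lower, beside 1.55% of all genes, and in this edgeR fit no member had a negative change at an unadjusted p under 0.05. The median log2 fold change of the 5 was 3.15, against -0.07 over all genes tested. DESeq2 called 3 of the 4 members to which it gave an adjusted p higher, beside 5.06% of genes, and limma-voom 3 of 5, beside 2.67%. The 3 that both tools called were Krt17, Krt79 and Krt23. Krt6a had a log2 fold change of -3.99 with limma-voom (unadjusted p = 0.0156, adjusted p = 0.105).

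**Figure D1:**
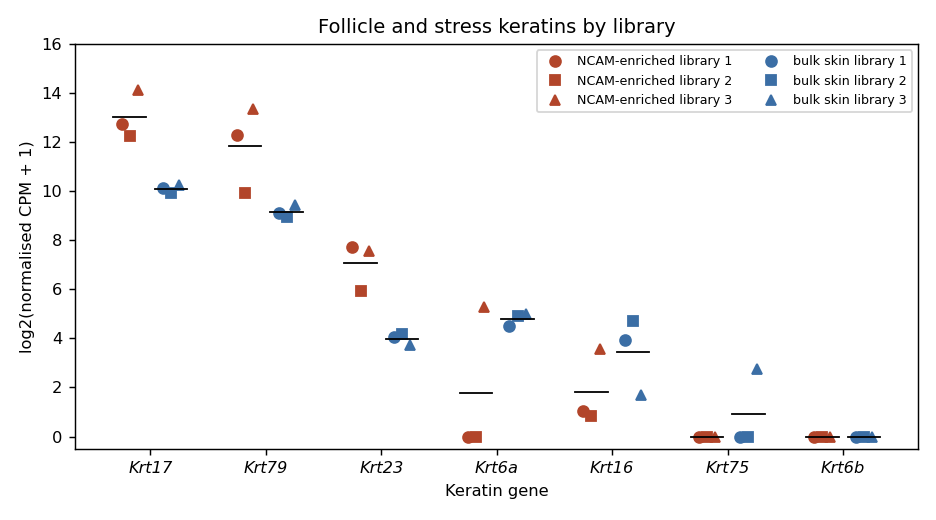
Level of each follicle and stress keratin in each library, as log2(normalised CPM + 1); red symbols are NCAM-enriched libraries, blue symbols bulk skin libraries, and black lines the group means of the plotted values. Krt17, Krt79 and Krt23 stand apart between the groups, Krt6a and Krt16 overlap, and Krt6b has no count in any of the 6 libraries.

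Krt17, a type I keratin of the follicle and of stressed skin, was the most abundant member per length of transcript in each library. It had 6877, 4914 and 17761 CPM in NCAM-enriched libraries 1, 2 and 3 and 1106, 980 and 1232 CPM in bulk skin libraries 1, 2 and 3. Every NCAM-enriched library was above every bulk skin library, and library 3 stood highest. With 62593 reads, Krt17 ranked 1 by reads among the 54532 genes in NCAM-enriched library 3. The mean was 9851 ± 6921 against 1106 ± 126 CPM (SD, n = 3), a log2 fold change of 3.15 ± 0.65 (SE; edgeR adjusted p = 0.0437).

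Krt79, a type II keratin of the upper follicle, came next in level per length in each library. It had 4951, 961 and 10334 CPM in the NCAM-enriched libraries and 546, 488 and 690 CPM in bulk skin. The groups did not overlap, but NCAM-enriched library 2 lay close to bulk skin. The mean was 5416 ± 4704 against 575 ± 104 CPM (SD, n = 3). Its log2 fold change of 3.24 ± 0.81 (SE) was close to that of Krt17 but had a larger error, and edgeR gave an adjusted p of 0.0691.

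Krt23, a type I keratin, was far less abundant than these. It had 213, 59.5 and 190 CPM in the NCAM-enriched libraries and 15.5, 17.3 and 12.3 CPM in bulk skin. The groups did not overlap, and library 2 was again the lowest of its group. The mean was 154 ± 82.9 against 15.1 ± 2.51 CPM (SD, n = 3), a log2 fold change of 3.36 ± 0.57 (SE; edgeR adjusted p = 0.0237). Krt17, Krt79 and Krt23 are thus 3 of the 5 tested members with every NCAM-enriched library above every bulk skin library, a pattern shown by 11.1% of all genes tested.

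These calls rested on few libraries. Leaving out NCAM-enriched library 1 or any 1 bulk skin library ended the calls of both Krt17 and Krt23. Without NCAM-enriched library 1 the adjusted p was 0.0694 for Krt17 and 0.0559 for Krt23, and without a bulk skin library it was 0.242 to 0.282 and 0.161 to 0.199. Over the 18 alternatives it ran from 2.53e-08 to 0.282 for Krt17 and from 1.60e-06 to 0.199 for Krt23. Krt79 was called without NCAM-enriched library 2 (log2 fold change 3.72, edgeR adjusted p = 0.00304), and its adjusted p ran from 1.03e-08 to 0.285. All 3 log2 fold changes stayed between 2.32 and 3.73 in every alternative. Labels and methods do not say that the libraries came from separate animals, so p-values measure only the spread between these libraries.

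**Figure D2:**
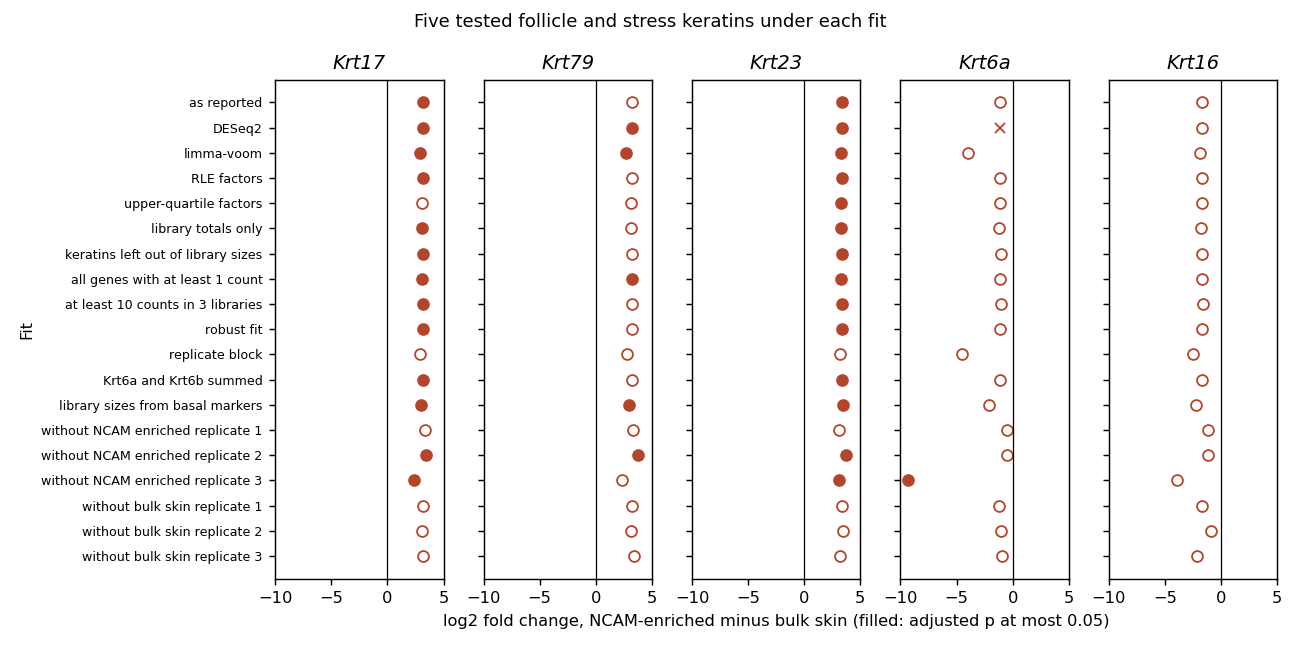
Log2 fold change (NCAM-enriched minus bulk skin) of the 5 tested keratins in the fit as reported (top row) and in the 18 alternative fits; filled points had an adjusted p of at most 0.05, open points a larger one, and the cross is a gene to which DESeq2 gave no adjusted p. Krt17, Krt79 and Krt23 lie right of 0 in every fit, and Krt6a moves to -9.33 when NCAM-enriched library 3 is left out.

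Krt6a, the type II keratin best known from wounded epidermis and the companion layer, had reads in 4 of the 6 libraries. It had 0, 0 and 37.5 CPM in NCAM-enriched libraries 1, 2 and 3 (0, 0 and 132 reads) and 21.4, 29.0 and 31.3 CPM in bulk skin (69, 134 and 114 reads). Library 3 of the NCAM-enriched group was above all bulk skin libraries and the other two had no read. The log2 fold change was -1.09 ± 1.61 (SE; edgeR adjusted p = 0.785, and 0.0296 to 0.899 in its alternatives). This value rests on NCAM-enriched library 3: without it Krt6a was called lower (adjusted p = 0.0296) and was at least 29.2-fold lower than in bulk skin, counted against a floor of 3 reads over the remaining NCAM-enriched libraries.

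Krt6b, its near copy, had 0 reads in each of the 6 libraries. A floor of 3 reads over a group allowed up to 0.448 CPM in the NCAM-enriched group and 0.261 CPM in bulk skin. In the 4 libraries with reads of Krt6a, those 3 reads allowed Krt6b up to 2.27% of the reads of the pair in NCAM-enriched library 3 and up to 4.35, 2.24 and 2.63% in bulk skin libraries 1, 2 and 3. Since only 1091 of its 2186 windows occur in no other gene, reads of Krt6b may have been dropped or counted under another gene by the authors' settings, which was not tested, and the limits hold only for reads that were counted under Krt6b. Floors and intervals cover counting error only, because reads are PCR copies without molecular identifiers.

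Krt16, the type I partner of the Krt6 proteins, had 1.06, 0.773 and 10.8 CPM in the NCAM-enriched libraries (2, 1 and 38 reads) and 14.3, 25.1 and 2.19 CPM in bulk skin (46, 116 and 8 reads). The groups overlapped, because bulk skin library 3 was below NCAM-enriched library 3. The log2 fold change was -1.66 ± 1.37 (SE; edgeR adjusted p = 0.584), and the adjusted p was 0.130 to 0.896 in the 18 alternatives. The size rests on single libraries: it was -3.90 without NCAM-enriched library 3 and -0.94 without bulk skin library 2. Krt75, the companion layer keratin, had 21 reads (5.76 CPM) in bulk skin library 3 and 0 in the other 5 libraries, and did not pass the filter.

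Krt17, Krt79 and Krt23 were also higher relative to the basal keratins of the same library, a ratio that does not depend on scaling between libraries. Krt17 had 3.40, 3.14 and 2.45 times the level of Krt14 per kilobase of transcript in the NCAM-enriched libraries and 0.310, 0.346 and 0.533 times in bulk skin. The groups did not overlap (exact permutation test of group means of the log2 ratio, two-sided, p = 0.1, which no comparison of 3 with 3 libraries can go below). Krt23, per kilobase, was at 0.104, 0.0377 and 0.0260 of Krt14 against 0.00431, 0.00606 and 0.00529 (exact permutation p = 0.1). Krt79 was at 2.36, 0.413 and 1.20 of Krt5 per kilobase against 0.139, 0.129 and 0.202 (exact permutation p = 0.1). Between Krt79 and Krt17 the ratio per kilobase was 0.533, 0.145 and 0.430 in the NCAM-enriched libraries and 0.365, 0.369 and 0.414 in bulk skin, with overlapping groups (exact permutation p = 1.0). NCAM-enriched library 2 was the lowest of the 6 in that ratio.

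As a share of all keratin reads, the 7 members took 25.9, 23.8 and 41.1% in NCAM-enriched libraries 1, 2 and 3 and 9.51, 9.76 and 14.8% in bulk skin libraries 1, 2 and 3. The exact 95% binomial intervals ran from 25.6 to 26.2%, 23.4 to 24.3% and 40.9 to 41.3% in the former and from 9.28 to 9.76%, 9.55 to 9.98% and 14.5 to 15.1% in the latter. The mean share was 30.3 ± 9.46% against 11.4 ± 2.98% (SD, n = 3). Per length the shares were 35.4 ± 8.62% and 12.3 ± 3.26%. Nearly all of it was Krt17 and Krt79, which together took 23.6 to 40.8% of keratin reads in NCAM-enriched libraries and 9.23 to 14.4% in bulk skin. The suprabasal keratins Krt1, Krt10 and Krt77 took 49.3, 45.6 and 15.6% in NCAM-enriched libraries and 5.20 to 7.11% in bulk skin. Basal keratins Krt5, Krt14 and Krt15 took 19.3 to 40.5% and 75.5 to 82.4%. NCAM-enriched library 3 thus had the largest share of Krt17 and Krt79 and the smallest share of suprabasal keratins in its group. All keratins together made up 2.40 to 6.39% of the counts in the NCAM-enriched libraries and 1.40 to 1.73% in bulk skin.

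**Figure D3:**
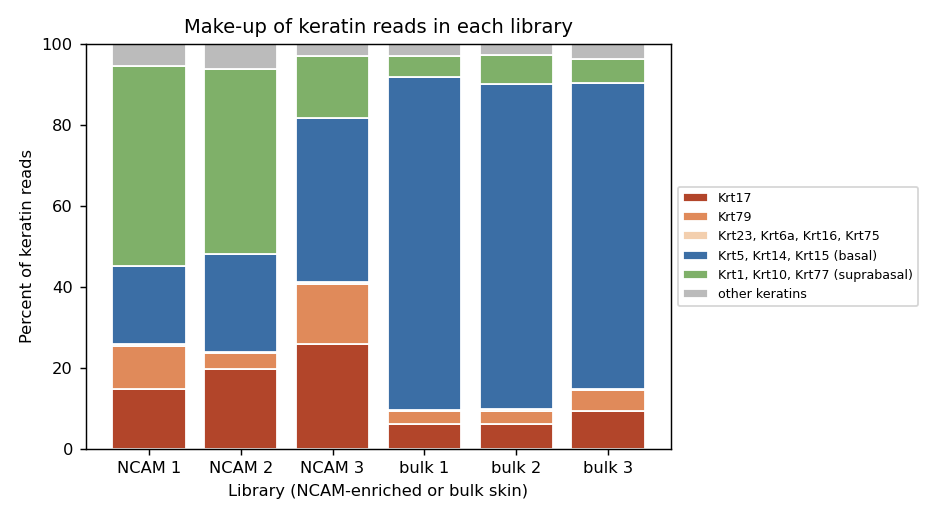
Percent of all keratin reads taken by groups of keratins in each library (stacked bars, NCAM-enriched libraries 1 to 3 and bulk skin libraries 1 to 3). Krt17 and Krt79 take 23.6 to 40.8% in the NCAM-enriched libraries and 9.23 to 14.4% in bulk skin, where Krt5, Krt14 and Krt15 take 75.5 to 82.4%.

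Some keratins outside the follicle and stress group were called higher as well. Of 24 keratin genes tested, 7 were called higher and 0 lower, with a median log2 fold change of 2.03. The 19 that are not among the members included 5 called higher and had a median of 1.92. Krt77, a suprabasal keratin, rose by a log2 fold change of 4.61 ± 0.56 (SE; edgeR adjusted p = 0.00884), Krt10 by 3.97 ± 0.62 (adjusted p = 0.0190), and Krt7, a simple epithelial keratin, by 3.58 ± 0.60 (adjusted p = 0.0225). Krt20, a Merkel cell keratin, rose by 3.21 ± 0.51 (adjusted p = 0.0196), and Krt78 had 550 reads against 2. Without any 1 bulk skin library none of these 4 fold changes was called, and that of Krt7 was not called either with the replicate number as a block (adjusted p = 0.0574) or without NCAM-enriched library 1 (adjusted p = 0.0537). Other keratins lay on the other side or near 0. Krt19, a simple epithelial keratin, had 9.56, 0 and 0.568 CPM in the NCAM-enriched libraries against 27.0, 37.0 and 42.8 CPM, without overlap (log2 fold change -3.38 ± 1.34 SE, edgeR adjusted p = 0.215). On its list of 15 tested epidermal and simple keratins DESeq2 and limma-voom each called 1 gene lower. The basal keratins Krt5, Krt14 and Krt15 overlapped between the groups. Of the 8 inner root sheath keratins only Krt71 was tested, and it was not called (0.531, 0 and 12.2 CPM in the NCAM-enriched libraries against 14.6, 1.51 and 4.39 CPM in bulk skin). Of the 15 hard hair keratins that had a row, 2 were tested and none was called. Krt83, one of these, had 0, 0 and 0.851 CPM against 19.9, 17.5 and 15.9 CPM (edgeR adjusted p = 0.0756), and DESeq2 and limma-voom each called 1 of the 2 lower. The 15 together did not go one way. They summed to 35.6, 0.773 and 186.7 CPM in NCAM-enriched libraries 1, 2 and 3 against 99.0, 62.9 and 72.4 CPM in bulk skin. Library 3 was thus above every bulk skin library, and the other NCAM-enriched libraries were below.

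**Figure D4:**
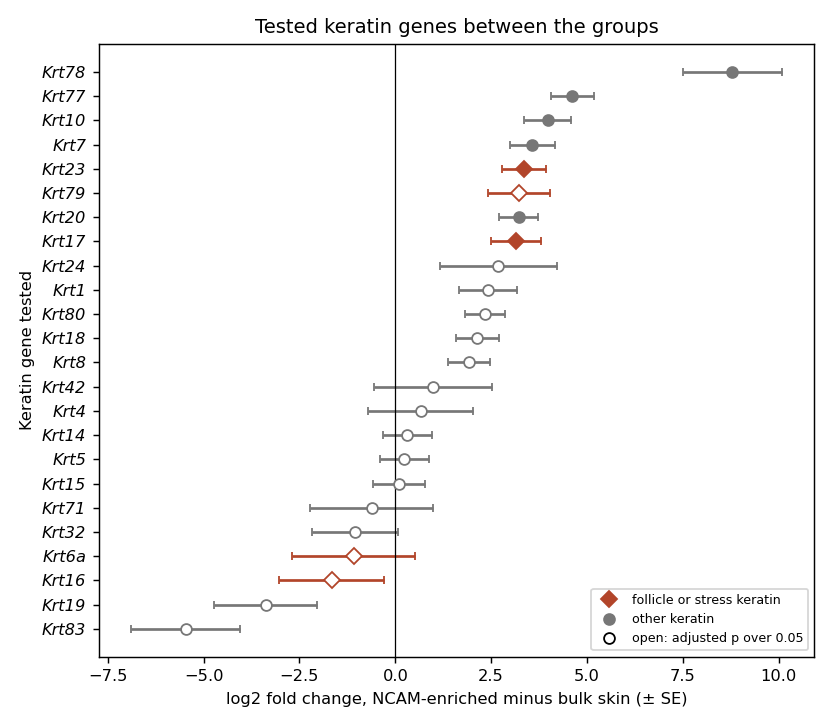
Log2 fold change (NCAM-enriched minus bulk skin, with SE) of the 24 tested keratin genes; red diamonds are the follicle and stress keratins, grey circles the other keratins, and filled symbols had an adjusted p of at most 0.05. Krt17, Krt79 and Krt23 lie among the higher keratins, between Krt24 and Krt7, and Krt6a and Krt16 lie below 0. The value of Krt78, with 2 reads in bulk skin, depends on the prior count of the fit.

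Other genes of the follicle had lower or overlapping levels. Of the 7 upper follicle genes tested, none was called higher by edgeR, DESeq2 or limma-voom, 1 was called lower by each, and the median log2 fold change was -0.18. The one called was Lgr6, a receptor of stem cells above the bulge, with 23.4, 40.9 and 37.5 CPM in NCAM-enriched libraries against 197, 166 and 248 CPM (log2 fold change -2.58 ± 0.41 SE, edgeR adjusted p = 0.0195). Plet1, a surface protein of the follicle junction, had 42.0, 4.64 and 100.5 CPM against 143, 139 and 178 CPM (log2 fold change -1.63, adjusted p = 0.326). Cst6, a protease inhibitor of the upper follicle and cornifying cells, had 7391, 200.1 and 4925 CPM against 1209, 2560 and 3074 CPM, and was not called by any of these tools. Of the 7 bulge and germ genes tested, Postn was called lower (-3.31 ± 0.48 SE, adjusted p = 0.0162), and Cd34, the bulge stem cell marker, had a log2 fold change of -3.02 (edgeR adjusted p = 0.130). DESeq2 and limma-voom called both lower, with an adjusted p for Cd34 of 0.0229 and 0.0201 (0.302 at the highest and 1.74e-06 at the lowest of its alternatives), and without NCAM-enriched library 2 its edgeR adjusted p was 0.0231 at a log2 fold change of -4.27. The median was -0.64. Neither Lgr6 nor Postn was called without any 1 bulk skin library (adjusted p 0.108 to 0.144 and 0.0784 to 0.101) or with library sizes from basal markers (0.122 and 0.0643), and Lgr6 was not with the replicate number as a block (0.0503).

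Genes of stressed epidermis were not called by edgeR. Of the 7 tested of 16 on the list, edgeR called 0, while 2 had an unadjusted p under 0.05, and DESeq2 and limma-voom called 1 and 2 lower. The median log2 fold change was 0.58. Sprr1a, a cornified envelope precursor, had 409, 263 and 1338 CPM against 136, 176 and 326 CPM (log2 fold change 1.66, adjusted p = 0.207). Gjb6, a gap junction protein, had 0 reads in the NCAM-enriched libraries and 118 in bulk skin (adjusted p = 0.0768). The alarmins S100a8 and S100a9, which rise in inflamed skin, were too low to test, at no more than 4.82 and 11.1 CPM in any library. The NRF2 pathway, which answers oxidative stress, is known to induce Krt6a, Krt16 and Krt17 in keratinocytes. Of its 8 genes edgeR called 0 (1 with an unadjusted p under 0.05, 1 called lower by DESeq2 and 0 by limma-voom), and the median was -0.18. Of 12 genes of the early response to dissociation, edgeR called 0, 2 had an unadjusted p under 0.05, and DESeq2 and limma-voom each called 2 higher. The median log2 fold change was 0.17, and 7 of the 12 lay above 0. Hspa1a, a heat shock protein, had a log2 fold change of 1.75 (edgeR adjusted p = 0.0608) and Jun of 1.80 (adjusted p = 0.127). That of Fos was 0.02 (adjusted p = 0.964), while Zfp36 was at -0.85 (adjusted p = 0.303) and Ier3 at -0.88 (adjusted p = 0.326).

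Levels of markers of other cell types are given beside those of the members. Basal markers had 0 of 8 called by edgeR, DESeq2 or limma-voom (0 with an unadjusted p under 0.05), a median of 0.08, and a summed level of 8803 to 32110 CPM in NCAM-enriched libraries against 13153 to 17215 CPM. Within the NCAM-enriched group their sum was highest in library 3, as were Krt17 and Krt79. The sum of the Merkel cell markers was lowest in that library (482 CPM, against 1569 and 1674 CPM in libraries 1 and 2). Sebaceous markers went both ways: 1 of 7 was called higher by edgeR, 5 of the 7 lay above 0, and the median was 1.73. The gene called, Dgat2, had 633, 146 and 663 CPM against 45.6, 83.2 and 75.9 CPM (log2 fold change 2.82, edgeR adjusted p = 0.0481). Scd1 had 511, 1729 and 269 CPM against 125, 203 and 209 CPM (log2 fold change 2.22, edgeR adjusted p = 0.108). Mgst1, a glutathione transferase, had 101, 136 and 67.0 CPM against 433, 272 and 397 CPM (log2 fold change -1.86, edgeR adjusted p = 0.0509). DESeq2 called 3 of the 7 higher and 1 lower, and limma-voom 1 higher and 1 lower. Only 1 of 6 melanocyte markers was tested and it was not called. Fibroblast markers had 0 of 6 called by edgeR or DESeq2 (1 with an unadjusted p under 0.05) and 3 called lower by limma-voom. They summed to 33003 CPM in NCAM-enriched library 2, where Krt17, Krt79 and Krt23 were lowest for that group, against 41.7 and 363 CPM in the other two and 10356 to 18198 CPM in bulk skin. The markers did not move together in library 2. Col1a1, Col1a2 and Pdgfra were above every bulk skin library there, and Col3a1 was within their range. Dcn (774 against 1925 to 2113 CPM) and Lum (44.8 against 240 to 344 CPM) were below every bulk skin library. The part of these cells in the levels of Krt17, Krt79 and Krt23 was not tested.

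The genes whose pattern over the 6 libraries was closest to each member were found among 9594 genes, by the root mean square distance between centred log2(CPM + 1) profiles. The distance is a description over 6 libraries of 2 groups. Krt17 was closest to Tjp3, a tight junction scaffold (0.229), and to Il1f5, an interleukin 1 family antagonist (0.268). Tjp3 had 53.7, 24.0 and 96.8 CPM against 5.90, 4.11 and 7.40 CPM. Krt23 was closest to Tmprss4, a membrane serine protease (0.128), with 155, 44.0 and 125 CPM against 12.7, 11.7 and 10.1 CPM, and then to the suprabasal gene Calm4 (0.300). Krt79 was less like any gene, with Hr, a corepressor needed for the hair cycle, at 0.471 and Tjp3 at 0.477. For Krt6a, Dbr1 lay at 0.196 and shared its 0 in NCAM-enriched libraries 1 and 2. Krt16 had no close match, with Pdgfb at 0.596 and Rrp1b at 0.619.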

How the data were processed

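The authors sorted NCAM-positive and unselected epidermal cells, made Smart-seq2 libraries and sequenced 50 bp single-end reads. Before sorting, the NCAM-positive cells were also bound to beads carrying an NCAM antibody, passed over a column and stained. The methods describe these steps for that group only, so effects of this handling cannot be told apart from those of the selection. According to their methods, adapters were clipped by bbduk and abundant sequences taken out by bbmap before alignment to GRCm38 by STAR and counting per gene by featureCounts. Which annotation release and strand setting they used is not given in the sources used here, and Smart-seq2 does not mark strand, so reads of overlapping genes (Krt6a with Gm44342 and Gm49428, Krt6b with Gm44383, Krt75 with Gm44460) cannot be told apart. The deposited values are raw counts of reads, without normalization.

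Groups came from the labels. All 6 libraries were fitted with the quasi-likelihood F-test of edgeR 4.0.16 (R 4.3.3), after filterByExpr and with TMM factors, and with the Benjamini-Hochberg adjustment over 13157 genes and a call at an adjusted p of at most 0.05. CPM are counts scaled by TMM-adjusted library size, and SE is derived from the test. The common biological coefficient of variation was 0.744. Positions, 50-base windows and coding sequences came from GENCODE M21 (54495 of 54532 gene IDs found), and per-kilobase values use the longest protein-coding transcript. For ratios, group means of the log2 ratio were compared by exact permutation (two-sided). The fit was tested on simulated data. Members and the 16 other gene lists were chosen with earlier results of these data known. Il36g and Il36a are listed as Il1f9 and Il1f6, and Krt85 was not analysed here.

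Genes were named by a rule: all members, the 2 tested genes of each list with the smallest p and its most abundant uncalled gene, and the 2 genes closest in pattern to each tested member (at least 20 CPM in the higher group). One gene that the rule names is not reported here. Named outside it, after values were seen, were Krt1, Krt5, Krt7, Krt10, Krt14, Krt19, Krt24, S100a8 and S100a9. Col1a1, Col3a1, Pdgfra, Ier3 and Zfp36 were named outside it as well. Alternatives were DESeq2 1.42.0, limma-voom (limma 3.58.1), other factors and filters, a robust fit, keratins left out of library sizes, Krt6a and Krt6b summed, a replicate block, leaving out each library and, chosen after seeing the data, library sizes from the 8 basal markers.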

Additional observations from a re-analysis of the deposited data

How the results depend on the processing

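Krt17, Krt79 and Krt23 kept a positive log2 fold change in all 18 alternatives, and Krt6a and Krt16 a negative one in each that gave them a value. The median over all genes moved from -0.07 to -0.37 with limma-voom and -0.36 with the replicate block. Members called higher numbered 2, and 1 with upper-quartile factors (Krt17: log2 fold change 3.07, adjusted p = 0.0502), 0 with the replicate block (Krt17 2.93, edgeR adjusted p = 0.102, and Krt23 3.19, adjusted p = 0.0669) and 3 with DESeq2, limma-voom, all genes of at least 1 count or basal marker library sizes, where Krt79 was called at log2 fold changes of 3.23, 2.71, 3.20 and 2.97. With the block 3 members still had an unadjusted p under 0.05. Replicate numbers are shared by the groups, and the deviations of same-numbered libraries from their group means correlated at 0.0231, 0.000232 and -0.00775. Whether same-numbered libraries shared an animal or a day is not stated, and these correlations cannot settle it. The block removes degrees of freedom, and its log2 fold changes were also smaller. They were 2.93 against 3.15 for Krt17, 3.19 against 3.36 for Krt23 and 2.73 against 3.24 for Krt79. Why the calls were lost was not tested. Leaving out 1 library at a time gave 0 to 3 members called higher and 0 to 1 called lower, with log2 fold changes of 2.35 to 3.47 for Krt17, 3.05 to 3.73 for Krt23, 2.32 to 3.72 for Krt79, -9.33 to -0.50 for Krt6a and -3.90 to -0.94 for Krt16. Without bulk skin library 1, 2 or 3, edgeR called 0, 0 and 1 genes higher of all tested, against 2115, 2237 and 2178 with an unadjusted p under 0.05. Without NCAM-enriched library 1, 2 or 3, it called 60, 444 and 1099 genes higher, against 137 with all 6 libraries. The cause of these shifts was not tested. Genes of the other lists called higher numbered 16 (29 with DESeq2, 29 with all genes of at least 1 count, 9 with the block, and 0 to 24 without 1 library). Those called lower numbered 13 (21 with DESeq2, 25 with limma-voom, 25 with all genes of at least 1 count, and 5 to 25 without 1 library). Cst6 reversed with limma-voom (log2 fold change -0.0795, adjusted p = 0.970, against 0.87). For these other changes the cause was not tested. The planned permutation test of the Krt6b share could not be run, because NCAM-enriched libraries 1 and 2 had no read of the pair. Krt75 had 0 reads in 5 libraries, where depth gives only an upper limit. For Krt6b, with 0 reads in all 6, depth and the counting of shared reads cannot be told apart.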
